A study of Mus musculus with 4 samples.

Results

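*Trp53*, the gene of the transcription factor p53, and 9 of its target genes were followed by RNA-seq in primary liver sinusoidal endothelial cells (LSECs), which form the fenestrated wall of the hepatic sinusoids. These 10 genes were taken by gene symbol from the 18373 genes of the deposited table: *Trp53*, *Mdm2*, *Trp53inp1*, *Cdkn1a*, *Ccng1*, *Bax*, *Phlda3*, *Aen*, *Eda2r* and *Zmat3*. All of them were found and all had enough counts to be tested. The LSECs came from the livers of 8-week-old Balb/c mice, were separated with anti-CD146 beads and cultured for 24 h on collagen-coated plates, and then received a control siRNA (NC) or si*Airn*, an siRNA against the long non-coding RNA *Airn*, for 48 h. There were 2 libraries labelled NC and 2 labelled si*Airn*. The methods speak of separate si*Airn* sequences while both labels name si*Airn*1, so it is not settled which siRNA each library received. The number of mice behind a library and any pooling were not given in the sources used here. The comparison asks how expression in LSECs differs when *Airn* is targeted.

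p53 is kept at a low level by MDM2, a ubiquitin ligase that marks it for degradation and whose own gene p53 switches on. When DNA damage or another stress releases p53 from MDM2, p53 binds DNA as a tetramer and raises genes that stop the cell cycle, start apoptosis, repair DNA or restrain p53 itself. Because p53 is controlled largely at the level of the protein, its activity is often read from its target genes and not from its own mRNA. A p53 response element is built from repeats of a decamer, a palindromic consensus of 10 bases with a C and a G around its centre.

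The decamer was looked for in the RefSeq promoter windows of the members (build GRCm38.p6, 250 bases before to 50 after a transcript start), since it is the unit that p53 recognises. Windows were given for 8 of the 10 genes (all but *Trp53inp1* and *Zmat3*), and 6 of these held at least 1 decamer. Counted by window, it was found in 7 of the 10 windows of these genes and in 8.36% of all 32851 windows. The same site of *Aen* lies in the windows of both its starts and was counted in each. It begins 121 bases before the one start and 10 bases after the other. The consensus reads the same on both strands, so that 1 search covers both. *Phlda3* and *Eda2r* had no match, which says only that these letters are not in the window. In *Cdkn1a* the window of the upstream start held a pair of decamers 12 bases apart, and a pair at most 13 bases apart was found in 0.0731% of all windows. Only exact matches were counted. In *Cdkn1a* the 10 bases right after the second decamer, printed in lower case, differ from the consensus at 1 base and were not counted. The matches are printed in capitals within their flanking bases, 5′ to 3′ on the strand of the gene.
Cdkn1a, chr17:29090900-29090957, plus strand: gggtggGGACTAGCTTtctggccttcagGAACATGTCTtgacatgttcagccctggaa
Ccng1, chr11:40755442-40755491, minus strand: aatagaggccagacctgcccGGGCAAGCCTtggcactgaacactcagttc
Mdm2, chr10:117710915-117710964, minus strand: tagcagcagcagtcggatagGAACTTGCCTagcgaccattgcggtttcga
Bax, chr7:45467070-45467119, minus strand: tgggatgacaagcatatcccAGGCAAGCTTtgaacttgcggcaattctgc
Aen, chr7:78895917-78895966, plus strand: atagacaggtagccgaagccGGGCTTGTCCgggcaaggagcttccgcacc
Trp53, chr11:69580264-69580313, plus strand: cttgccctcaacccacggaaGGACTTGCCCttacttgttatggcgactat
The decamer began 201 bases before the start of *Bax*, 186 before that of *Mdm2*, 185 before that of *Ccng1* and 75 before that of *Trp53*. As described below, *Ccng1* and *Mdm2* were higher, *Bax* was lower, and *Cdkn1a*, *Aen* and *Trp53* did not pass the test. A match describes the sequence only and does not show that p53 binds there.

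The libraries held between 17308382 and 18371959 estimated counts. Counts of *Airn* were 7 and 3 under the NC label but 11 and 9 under the si*Airn* label, a ratio of 1.97 with an exact binomial 95% interval from 0.88 to 4.71 that covers counting error only. In these few counts the siRNA target was thus not lower under the si*Airn* label, and all directions in this report follow the labels. Of 13628 genes tested with edgeR (quasi-likelihood test, p-values adjusted after Benjamini and Hochberg), 2294 (16.8%) were called at an adjusted p under 0.05, 8.27% as higher and 8.56% as lower under the si*Airn* label. The labels call the libraries biological replicates but do not say whether they came from separate mice or cultures, so that p-values measure only the spread between these samples.

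The p53 genes were well expressed in these LSECs. Levels between genes are compared here on the FPKM scale, which takes transcript length into account. In NC, *Bax* was the highest with 412 ± 15.2 FPKM, followed by *Cdkn1a* with 375 ± 3.37, *Trp53* with 207 ± 8.73 and *Phlda3* with 152 ± 1.38 (mean ± SD, n = 2 throughout). *Ccng1* (95.9 ± 2.67 FPKM), *Mdm2* (81.5 ± 4.10) and *Aen* (67.6 ± 2.31) were intermediate, and *Trp53inp1* (27.0 ± 1.51), *Eda2r* (23.8 ± 1.28) and *Zmat3* (19.7 ± 0.283) were the lowest. No neighbours in this order overlapped between the NC libraries. In the libraries labelled si*Airn* the order of FPKM levels changed in 2 places. *Cdkn1a* (391 ± 9.26 FPKM) stood above *Bax* (275 ± 26.6), and *Eda2r* (37.0 ± 3.71) and *Trp53inp1* (35.6 ± 1.46) overlapped. *Ccng1* (138 ± 0.693 FPKM) still lay below *Phlda3* (145 ± 2.89), without overlap. The order of these FPKM levels is a description without a test.

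Of the 10 genes, 4 rose and 1 fell in the libraries labelled si*Airn*, and 5 did not pass the test. *Ccng1*, *Eda2r*, *Trp53inp1* and *Mdm2* were higher and *Bax* was lower, whereas *Trp53*, *Cdkn1a*, *Phlda3*, *Aen* and *Zmat3* had an adjusted p of 0.05 or more (edgeR's test, adjusted over all genes tested, used for every adjusted p unless another is named). Of all genes tested, 16.8% were called, 8.27% as higher and 8.56% as lower. The median log2 fold change of the 10 genes was 0.15, beside 0.0013 for all genes tested. In 6 of the genes both libraries labelled si*Airn* lay above both NC libraries and in 3 they lay below, 9 genes in all without overlap, while 30.9% and 31.9% of all genes tested did so, together 62.7%. The genes were chosen with earlier results of these data known, and the counts are therefore a description. Since the samples are bulk RNA, fewer cells expressing a gene and less RNA per cell cannot be told apart.

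**Figure D1:**
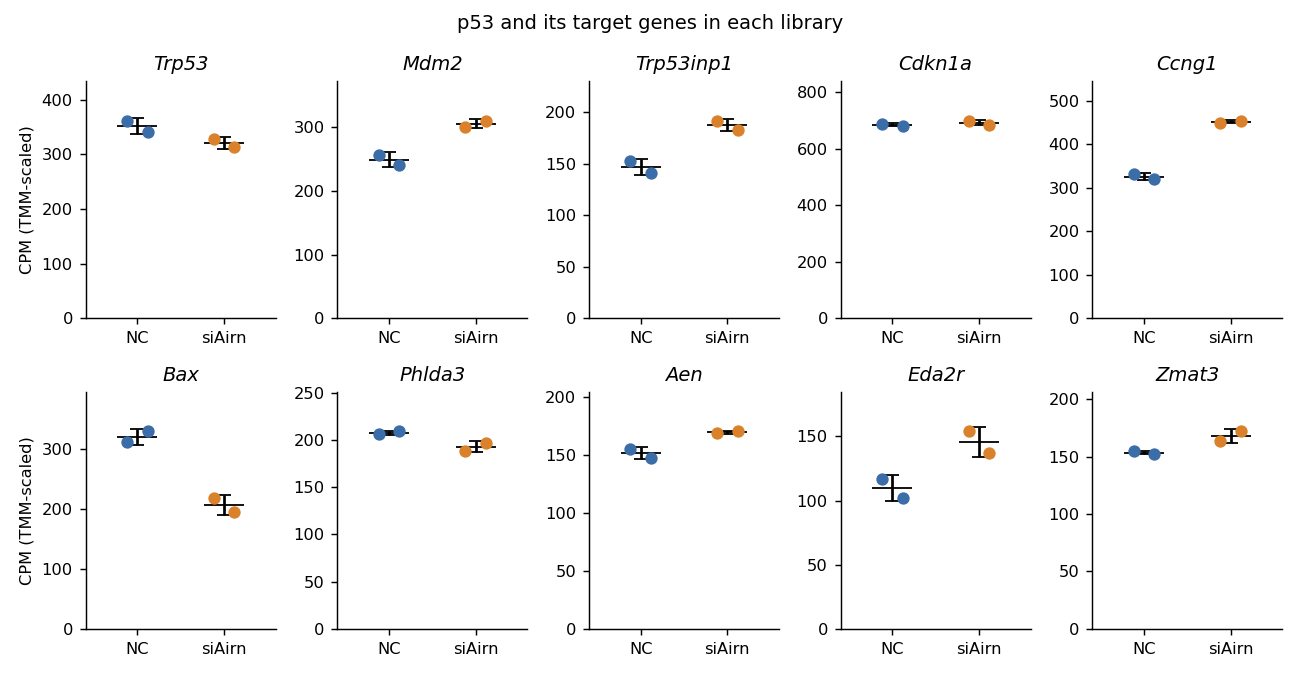
CPM of p53 and 9 target genes in each of the 4 libraries, 1 panel per gene, with every vertical axis starting at 0. Points are libraries (NC blue, siAirn orange), and the black bars give the mean and SD of 2 libraries. *Ccng1*, *Mdm2*, *Trp53inp1* and *Eda2r* sit higher and *Bax* lower in the libraries labelled siAirn, while the *Cdkn1a* groups overlap.

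Expression of *Trp53* (gene ID 22059) was 362 and 341 CPM in NC and 329 and 314 CPM in the libraries labelled si*Airn*, where CPM is the count scaled to library size with TMM factors. Both libraries labelled si*Airn* were below both NC libraries by a small margin. The log2 fold change was -0.13 with a standard error of 0.06 and a 95% interval from -0.28 to 0.02, and the adjusted p was 0.2. In GENCODE M21 (GRCm38), *Trp53* lies on chromosome 11 from 69580359 to 69591873 on the plus strand. Of its windows of 50 bases, 3.88% also occur in other genes, so that a small part of its reads may be shared. Its deposited counts were nevertheless whole numbers in all libraries.

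*Mdm2*, an inhibitor of p53, and *Trp53inp1*, a cofactor of p53, rose by this test, and neither was called on values corrected for GC content and length (given below). *Mdm2* (gene ID 17246; chromosome 10, 117688875 to 117710758, minus strand) had 257 and 240.4 CPM in NC and 300.1 and 310.3 CPM in the libraries labelled si*Airn*. The groups were separated by more than the distance between their own libraries. The difference was 1.23-fold (log2 fold change 0.30 ± 0.06 SE, adjusted p = 0.0262). *Trp53inp1* (gene ID 60599; chromosome 4, 11156431 to 11174379, plus strand) encodes a stress-induced nuclear protein that promotes the activity of p53. It had 153 and 141 CPM in NC and 192 and 183 CPM in the libraries labelled si*Airn*, 1.28-fold higher (log2 fold change 0.35, standard error 0.07, adjusted p = 0.0197). Its groups did not overlap either.

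Of the 2 members linked to cell cycle arrest, *Ccng1* rose and *Cdkn1a* did not pass the test. *Cdkn1a* (gene ID 12575; chromosome 17, 29090976 to 29100727, plus strand) encodes p21, the inhibitor of cyclin-dependent kinases through which p53 stops the cell cycle. It had the highest CPM of the 10 genes, with 687 and 680.4 in NC beside 699 and 684 under the si*Airn* label. These values overlapped. The log2 fold change was 0.02 with a 95% interval from -0.12 to 0.15 (adjusted p = 0.867). Its counts were not whole numbers, unlike those of the other 9 genes, and 7.68% of its exonic bases lie under exons of another gene on the opposite strand. *Ccng1* (gene ID 12450; chromosome 11, 40748552 to 40755311, minus strand) encodes cyclin G1, a p53-induced partner of protein phosphatase 2A. It had 332 and 319 CPM in NC and 449.6 and 454.6 CPM in the libraries labelled si*Airn*. With all libraries and on the count scale it had the largest increase of the 10 genes, while that of *Eda2r* was larger on the FPKM scale, without NC replicate 1 and without si*Airn* replicate 2. The increase of *Ccng1* was 1.39-fold (log2 fold change 0.47, standard error 0.06, 95% interval from 0.33 to 0.61, adjusted p = 0.00751). The distance between the groups was many times that between libraries of a group.

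Of the 4 members linked to apoptosis, *Bax* fell, *Eda2r* rose, and *Phlda3* and *Aen* did not pass the test. *Bax* (gene ID 12028; chromosome 7, 45461697 to 45466898, minus strand) encodes the protein that permeabilizes the outer mitochondrial membrane. It had 312 and 330.4 CPM in NC and 219 and 196 CPM in the libraries labelled si*Airn*, and no overlap was seen. *Bax* fell to 0.646-fold of NC (log2 fold change -0.63, standard error 0.08, 95% interval from -0.81 to -0.45, adjusted p = 0.00683). This was the largest change of the 10 genes on the count scale with all libraries, but *Eda2r* exceeded it on the FPKM scale and *Ccng1* equalled it after the length correction (0.44 beside -0.44). In GENCODE M21, 12.2% of its exonic bases lie under exons of Gm45808 on the same strand, so that a part of its counts is uncertain.

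*Eda2r* (gene ID 245527; chromosome X, 97333840 to 97377216, minus strand) encodes a receptor of the tumour necrosis factor receptor family that binds ectodysplasin A2. It had 117 and 102 CPM in NC and 154 and 137 CPM in the libraries labelled si*Airn*. Relative to its level, the distance between the NC replicates was wider than in the other members (13.2%), and the groups still did not overlap. The difference was 1.33-fold (log2 fold change 0.41, standard error 0.09, adjusted p = 0.0269). *Phlda3* (gene ID 27280; chromosome 1, 135766119 to 135769136, plus strand) encodes a repressor of the kinase AKT, and it had 206 and 209 CPM in NC and 189 and 197 CPM in the libraries labelled si*Airn*. Its log2 fold change was -0.11 with a 95% interval from -0.25 to 0.04 (adjusted p = 0.262). *Aen* (gene ID 68048; chromosome 7, 78895854 to 78911209, plus strand) encodes an apoptosis-enhancing nuclease, and it had 155 and 148 CPM in NC and 169 and 170.5 CPM in the libraries labelled si*Airn*. Its log2 fold change was 0.16 with a 95% interval from 0.02 to 0.31, but it did not pass the adjustment (adjusted p = 0.113). *Aen* was called only in the edgeR fit with a replicate block, described in the last section (adjusted p = 0.0238). *Zmat3* (gene ID 22401; chromosome 3, 32334792 to 32366014, minus strand) encodes a zinc finger protein that binds RNA. It had 155 and 152 CPM in NC and 163 and 172 CPM in the libraries labelled si*Airn*, and its log2 fold change was 0.13 with a 95% interval from -0.02 to 0.28 (adjusted p = 0.196).

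**Figure D2:**
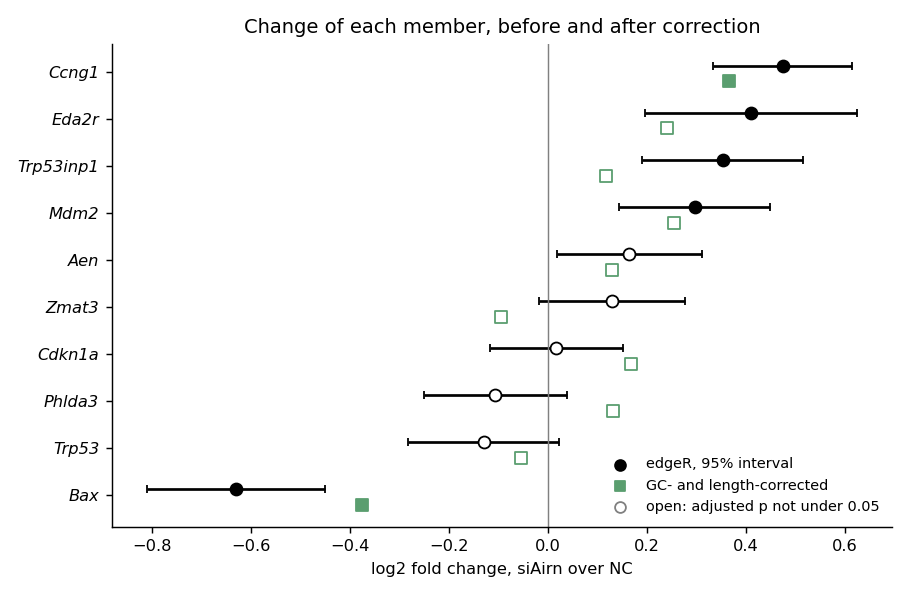
Log2 fold change of the 10 genes, libraries labelled siAirn over NC. Circles are edgeR estimates with 95% intervals, squares are the estimates after correction for GC content and length, and filled symbols have an adjusted p under 0.05. *Bax* at -0.63 and *Ccng1* at 0.47 are filled before and after the correction, *Mdm2*, *Trp53inp1* and *Eda2r* only before it.

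The calls of the 10 genes were lost when either NC library was left out, where the spread between libraries comes from the si*Airn* pair alone. Chi-square per degree of freedom between the libraries of a group was 6.43 for NC and 8.57 for that pair. Why the calls were lost was not tested. Without NC replicate 1 and without NC replicate 2, the same edgeR test called 0 of the 10 genes, while 5 had an unadjusted p under 0.05 in each case. Over all genes it then called 40 and 0 genes, with 3506 and 3106 at an unadjusted p under 0.05. The log2 fold change of *Bax* was -0.67 and -0.59 in these fits (adjusted p = 0.0645 and 0.0955), and that of *Ccng1* was 0.50 and 0.44 (adjusted p = 0.0688 and 0.0964). For *Eda2r* the values were 0.50 and 0.32 (adjusted p = 0.081 and 0.173). *Mdm2* stood at 0.34 and 0.25 in these fits, beside 0.30 with all libraries, and *Trp53inp1* at 0.41 and 0.30, beside 0.35. Without si*Airn* replicate 1 the same test called 5 of the genes and 2410 of all genes. Without si*Airn* replicate 2 it called 4 of the genes and 1446 of all genes, with *Mdm2* at an adjusted p of 0.0748. In such a fit the lone library of a group is assumed to vary like the other group. By the threshold of the study's methods, which asks for more than 1.4-fold together with an unadjusted p under 0.05, *Bax* was the one member that passed (9.96% of all genes tested did), since *Ccng1* stood at 1.39-fold in counts. On the deposited FPKM, a scale chosen for this threshold after seeing the data, 3 members passed it (6.71% of all genes tested did), with log2 fold changes of -0.59 for *Bax* (adjusted p = 0.0197), 0.61 for *Eda2r* (adjusted p = 0.0197) and 0.53 for *Ccng1* (adjusted p = 0.0161) by limma on log2(FPKM + 1) with a mean FPKM of at least 1.

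The log2 fold changes of the 10 genes were lower the higher the GC content of their transcripts. The genes lowest in GC were *Trp53inp1* (38.8% in its longest GENCODE M21 transcript), *Ccng1* (40.8%), *Eda2r* (40.9%) and *Mdm2* (46.2%), which are the 4 genes that rose. *Bax* had the highest GC content, 63.5%, and *Phlda3* followed with 62.6%. Spearman's rho between GC content and log2 fold change was -0.915 across the 10 genes and -0.333 across 12905 genes tested, and with the corrected values described below it was -0.455 across the 10 genes. The genes share the same 4 libraries and are not independent, and these correlations are given as a description. Over all genes, the median log2 fold change was 0.14 in the lowest of 5 equal bins of GC content (median 41.3%) and -0.14 in the highest (median 57.9%).

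**Figure D3:**
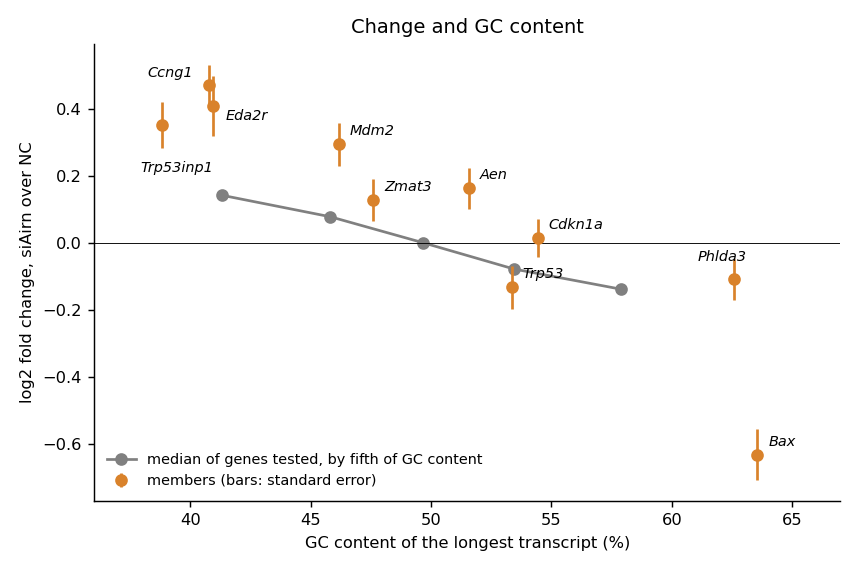
Log2 fold change (libraries labelled siAirn over NC) against the GC content of the longest transcript in percent. Orange points are the 10 genes with standard errors, and grey points give medians of the genes tested, binned by GC content into 5 equal groups. The 4 genes that rose have 46.2% GC or less, and *Bax*, with 63.5%, lies at -0.63.

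After each library was corrected for GC content and transcript length, 2 of the 10 genes were called, beside 8.16% of all genes tested. The median log2 fold change of the 10 genes was then 0.13, beside -0.0027 for all genes tested. By edgeR's test on corrected values the log2 fold change was -0.38 ± 0.08 (SE) for *Bax* (adjusted p = 0.0359) and 0.37 ± 0.06 (SE) for *Ccng1* (adjusted p = 0.0183). *Mdm2* had a log2 fold change of 0.25 with an adjusted p of 0.0523. *Eda2r* went to 0.24 (adjusted p = 0.134) and *Trp53inp1* to 0.12 (adjusted p = 0.271). The estimates of *Phlda3* (0.13) and *Zmat3* (-0.10) turned their sign, and neither passed the test with or without the correction. *Cdkn1a* was at 0.17 (adjusted p = 0.106). With the correction for length alone 3 genes were called, *Bax*, *Ccng1* and *Mdm2* (adjusted p = 0.0382), beside 9.78% of all genes. The source of the trend with GC content was not tested.

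In *Eda2r* the deposited count and FPKM disagreed in size. The log2 ratio of mean levels was 0.41 on the CPM scale and 0.64 on the FPKM scale. Count, FPKM and library total together imply the transcript length that was used for a gene in a library, and where a tool such as RSEM, named in the submitters' processing notes, estimates isoforms, this length follows their shares. For *Eda2r* the implied length was 4670 and 4393 bases in NC and 3949 and 4016 bases in the libraries labelled si*Airn*, 12.1% shorter on average, and the groups did not overlap. GENCODE M21 lists 4 transcripts of *Eda2r* from 779 to 4752 bases. Of 10226 genes with at least 100 counts in every library, 187 (1.83%) moved as far in either direction. The implied length of the other 9 genes moved by 1.72% or less, the most in *Aen* (longer in the libraries labelled si*Airn*) and *Ccng1* (1.33% shorter). Which transcripts of *Eda2r* changed was not tested, because the table holds values per gene.

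**Figure D4:**
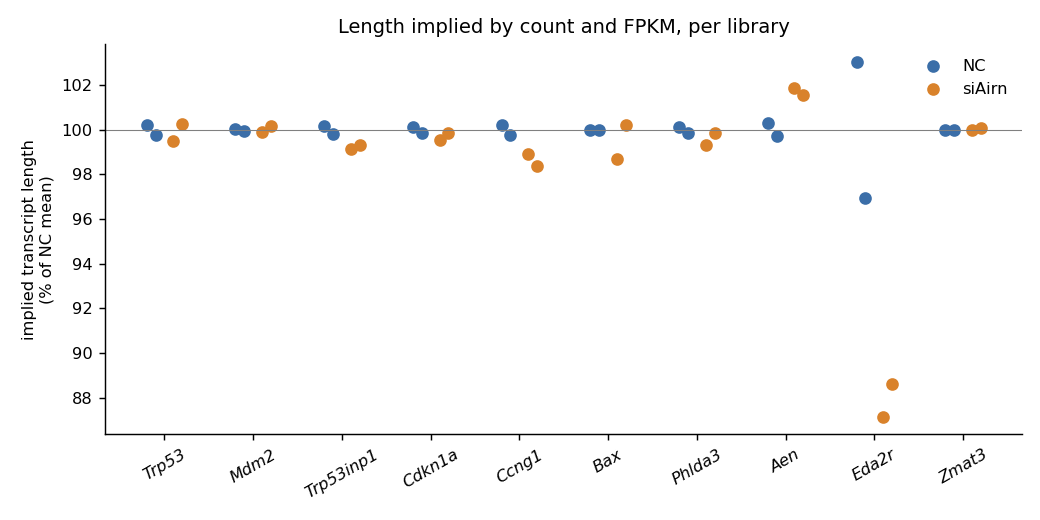
Transcript length implied by count, FPKM and library total for each gene and library, as a percentage of the NC mean (the axis does not start at 0). Points are libraries, NC in blue and siAirn in orange. *Eda2r* is 12.1% shorter in the libraries labelled siAirn, and the other 9 genes stay within 1.72% on average.

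Other genes of the p53 network were followed in 6 lists. Of 29 further p53 target genes tested, 3 rose and 26 did not pass the test (8.27% of all genes rose), with a median log2 fold change of 0.10. *Plk2*, a kinase of the polo family, rose from 512 ± 14.0 to 621 ± 48.9 CPM (log2 fold change 0.28, adjusted p = 0.0421). *Apaf1*, the core of the apoptosome, rose by a log2 fold change of 0.36 (adjusted p = 0.0286), and *Polk*, a DNA polymerase that copies past lesions, by 0.37 (adjusted p = 0.0281). None of these 3 genes was called on values corrected for GC content and length. *Plk2* kept its log2 fold change of 0.28 there (adjusted p = 0.0537), while *Apaf1* went to 0.15 and *Polk* to 0.24. The median of the 29 genes was 0.15 on corrected values. The one gene of this list called on corrected values was *Sesn2*, a stress-induced regulator of mTORC1, beside 8.16% of all genes. Its log2 fold change was 0.27 (adjusted p = 0.0471, and 0.152 before the correction). It is named here after its values were seen. Among 17 upstream regulators tested, 5 rose and 12 did not pass. *Atm*, the kinase that signals DNA double-strand breaks to p53, had the largest log2 fold change of these, 0.55 (adjusted p = 0.0158), followed by the acetyltransferase *Ep300* with 0.51 (adjusted p = 0.00932), the ubiquitin ligase *Cop1* with 0.32 (adjusted p = 0.0349), the kinase *Hipk2* with 0.32 (adjusted p = 0.0274) and the deubiquitinase *Usp7* with 0.27 (adjusted p = 0.0342). *Ep300* was the one regulator still called after the correction (log2 fold change 0.32, adjusted p = 0.0347). *Atm* went to 0.24, *Hipk2* to 0.20, *Usp7* to 0.14 and *Cop1* to -0.01, where the sign turned.

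A list of 21 genes held the BCL2 family other than *Bax*, the caspases, and also *Xiap*, *Diablo* and *Cycs*. Of these, 3 fell and 18 did not pass the test, beside 8.56% of all genes that fell and 16.8% called in either direction. *Casp6*, an executioner caspase, fell from 31.6 to 22.7 CPM (log2 fold change -0.48, adjusted p = 0.0162), *Casp8*, the initiator caspase of death receptors, from 107 to 84.8 CPM (-0.33, adjusted p = 0.0368) and *Bok*, a relative of *Bax*, from 49.2 to 40.0 CPM (-0.30, adjusted p = 0.0307). The median log2 fold change of this list was -0.06, and *Casp6* was the gene still called after the correction (adjusted p = 0.0217). *Casp8* stood at -0.34 on corrected values (adjusted p = 0.0538), about as low as before, and *Bok* at -0.07 (adjusted p = 0.561).

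In the cell cycle, 1 of 6 CDK inhibitors other than *Cdkn1a* fell, *Cdkn1c* (p57), from 21.2 to 14.9 CPM (log2 fold change -0.51, adjusted p = 0.023). It was not called after the correction (log2 fold change -0.31, adjusted p = 0.125). Of 15 cyclins, kinases and regulators of G1 and S phase, 3 rose and 3 fell, beside 8.27% and 8.56% of all genes tested. *Ccne2*, cyclin E2, rose from 2.86 and 3.37 CPM to 9.96 and 7.64 CPM. Its log2 fold change was 1.49 ± 0.21 (SE, adjusted p = 0.0092) and stood at 1.34 after the correction (adjusted p = 0.0161). *Ccnd2* (0.46, adjusted p = 0.0112) and *Cdk6* (0.43, adjusted p = 0.0141) also rose, and *E2f4* (-0.32, adjusted p = 0.0182), *Ccnd3* (-0.32, adjusted p = 0.0203) and *Cdk4* (-0.25, adjusted p = 0.0405) fell. Of these 5 genes *Ccnd2* was still called after the correction (0.27, adjusted p = 0.0475), and *Cdk6* (0.12, adjusted p = 0.352), *E2f4* (-0.15, adjusted p = 0.147), *Ccnd3* (-0.23, adjusted p = 0.0592) and *Cdk4* (-0.11, adjusted p = 0.303) were not. *Ccne1*, cyclin E1 (0.60, adjusted p = 0.036, and 0.0562 before the correction), and *Rb1*, the retinoblastoma protein (-0.34, adjusted p = 0.0335, and 0.138 before it), were called on corrected values alone and are named here after their values were seen. Of 20 cell cycle genes that p53 is known to repress through p21 and the DREAM complex, 3 rose and 17 did not pass, beside 8.27% of all genes that rose. These were *Mcm2* (log2 fold change 0.36, adjusted p = 0.0282), *Mcm5* (0.36, adjusted p = 0.0472) and *Mcm3* (0.27, adjusted p = 0.0383), subunits of the replicative helicase, and all 3 were still called after the correction, which left 8.16% of all genes called. The median of this list was 0.25, and 0.14 after the correction. That of the CDK inhibitors was -0.37 before and -0.19 after it. Without NC replicate 1 or NC replicate 2 none of the network genes was called by edgeR's test, 0 of 107 tested, with 33 and 26 at an unadjusted p under 0.05.

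**Figure D5:**
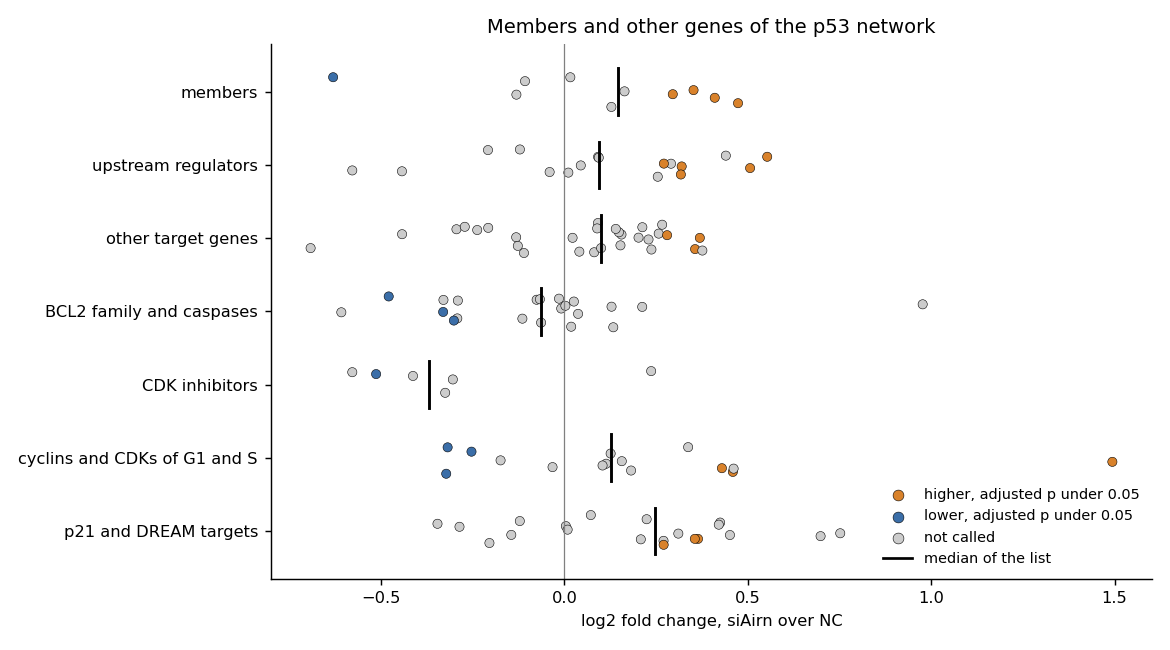
Log2 fold change (libraries labelled siAirn over NC) of the members and of the tested genes in 6 lists of the p53 network, each point 1 gene and each black line the median of a list. Orange and blue points have an adjusted p under 0.05 (higher, lower), grey points do not. *Ccne2* at 1.49 lies furthest from 0, and the list medians range from -0.37 for the CDK inhibitors to 0.25 for the p21 and DREAM targets.

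Markers of several cell types were summed in each library to set beside the values of the p53 genes. The 12 LSEC and endothelial markers summed to 10399 and 10091 CPM in NC and to 7445 and 6653 CPM in the libraries labelled si*Airn*, and 9 of them fell (8.56% of all genes did). On values corrected for GC content and length 9 of 12 were called as lower (8.16% of all genes were called in either direction). The genes were not all the same, since *Erg* lost its call (adjusted p = 0.065) and *Stab2* gained one (adjusted p = 0.0445). The 12 Kupffer cell and macrophage markers summed to 243 and 310.4 CPM and to 186 and 156 CPM, and 7 of 11 tested fell, 2 of 11 after the correction. Their median log2 fold change was -0.78 before the correction and -0.53 after it. The 11 stellate cell and fibroblast markers summed to 1714 and 2076 CPM and to 1999 and 2589 CPM, overlapping between the groups, with 4 higher and 7 not called (8.27% of all genes were higher). The median log2 fold change of this list was 0.41, and 3 of its genes were called as higher on corrected values. The 10 hepatocyte markers summed to 599 and 760.0 CPM and to 836 and 1084 CPM, with 1 of 7 tested higher before and after the correction and a median of 0.42. The lymphocyte markers summed to at most 8.37 CPM and the cholangiocyte markers to at most 34.2 CPM in any library, and the cholangiocyte sums overlapped between the groups. No listed marker was at 0 in all 4 libraries. The endothelial markers were thus well detected in all libraries. Abundant genes weigh most in these sums. The highest NC means were 2889 CPM for *Eng* among the endothelial markers, 672 for *Tagln* among the stellate markers and 567 for *Alb* among the hepatocyte markers. The part of cell composition in the values of the p53 genes was not tested.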

How the data were processed

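RNA-seq of 4 LSEC libraries (2 NC, 2 si*Airn*) was analysed, with single-end reads of 50 bases. The authors deposited 1 table with estimated counts, not normalized (76.5% to 76.8% of them whole numbers), and values computed by the authors that were taken to be FPKM, since the header names no unit and they scale with count, length and library total. The deposited group means (4 columns) were not used. The submitters' processing notes name BWA, Bowtie2 and RSEM without roles, and hg19, a human build, although the gene IDs are mouse. The build behind the counts and the use of strand are not given in the sources used here.

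After rounding, counts were tested with edgeR 4.0.16 under R 4.3.3 (TMM, factors from 0.985 to 1.02, filterByExpr, glmQLFit with robust set to false, glmQLFTest, no covariate), which left 13628 genes. Standard errors are those implied by the F statistic. Alternatives were DESeq2 1.42.0, limma 3.58.1 on log2(FPKM + 1) and log2(FPKM + 0.1), other filters, scalings and thresholds, a likelihood-ratio test, a replicate block, corrections for effective length and for both length and GC content (per library, splines with 5 degrees of freedom), and leaving out each library. GC content and length came from the longest GENCODE M21 transcript of 12905 genes (94.7%). This transcript can be longer than the length implied by count and FPKM. In NC replicate 1 the implied length was 2216 beside 4956 bases in *Aen* and 1682 beside 3275 in *Trp53*. In *Zmat3* it was 7681 beside 7797 bases. The code was tested on simulated data.

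All members, *Airn*, and the called genes of each list (at most 5 in each direction) are named. Members and lists were chosen with earlier results of these data known, so no list was given a test of its own.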

Additional observations from a re-analysis of the deposited data

How the results depend on the processing

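The direction of *Bax*, *Ccng1*, *Mdm2*, *Eda2r*, *Trp53inp1*, *Trp53*, *Cdkn1a* and *Aen* was the same under all 16 alternatives. That of *Phlda3* and *Zmat3* reversed under the corrections, to log2 fold changes of 0.025 and -0.11 with the correction for effective length and to 0.13 and -0.10 with that for GC content and length. The number of the 10 p53 genes called (5) was 3 after the length correction, 2 when GC content was corrected too, 2 at an adjusted p under 0.01 and 1 at a fold change over 1.4 with an unadjusted p under 0.05. For all genes (2294) these numbers were 1327, 1053, 343 and 1358, and for the other network genes (21 of 107 tested) they were 11 and 10 after the corrections. The 12905 genes with a GC content gave 2208 calls without the correction, a setting chosen after seeing the data. With limma on log2(FPKM + 1) and no filter on low values, 0 of the 10 genes, 0 of all genes and 0 of the network genes were called, with 7, 4418 and 40 at an unadjusted p under 0.05, whereas limma with a mean FPKM of at least 1 called 5 of the 10 genes and 1743 of all genes, and DESeq2 also 5 of the 10 and 1719 of all genes. The cause was not tested. The threshold of 1.4-fold, put on log2(FPKM + 1) with limma after seeing the data, was passed by 3 of the p53 genes and 783 of all genes. Leaving out each library gave 0 to 5 of the p53 genes, 0 to 2410 of all genes and 0 to 22 of the network genes by edgeR's quasi-likelihood test. Of all genes, 1446 were called without si*Airn* replicate 2.

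The labels number the replicates 1 and 2 in both groups but do not say that a number marks a shared animal or day. Deviations of same-numbered libraries from their group means correlated with r = 0.297 across genes. With the replicate block 6 of the p53 genes were called, *Aen* in addition (adjusted p = 0.0238, edgeR), and 4841 of all genes and 39 of the network genes. At 1850 to 12625 counts per library, counting error was small for the 10 genes, and the number of libraries limits the precision.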
